A study of Mus musculus with 142 samples.

Results

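A.B.COSN123 is the deletion line in which segment A and segment B of the Dppa domain were removed whole and segment C lost its 3 OSN sites, all on 1 homolog, genome1, of hybrid mouse embryonic stem cells. Its members are the 4 early/late Repli-seq libraries whose data columns carry this name, 2 cultures of clone 2E.1 and 2 of clone 5A.7, of 66 libraries from 53 clones and 26 lines in all. The cells are F121-9, an embryonic stem cell line from a cross of musculus (homolog genome1 of the files) and castaneus (CAST, genome2) mice, so that each library gives 1 profile for each homolog. Cells were grown in serum-free 2i/LIF medium, labelled with BrdU for 2 h and sorted into early and late S phase. The deleted genome1 allele is called the deletion allele here, and its control is the CAST homolog of clone 2E.1, which carries no deletion. The CAST homolog of clone 5A.7 lacks segment B and was therefore not used as a control.

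Further genome1 alleles served for comparison: COSN123 (the 3 C OSN sites deleted, 4 cultures of the single clone A10), AOSN.B.COSN123 (the A OSN site, all of B and the 3 C OSN sites deleted, 10 libraries of 5 clones) and A.BOSN12.COSN123 (all of A, OSN sites 1 and 2 of B and the 3 C OSN sites deleted, 2 libraries of clones A6 and C11). According to the study's results A and B were deleted in the COSN123 line, so these clones descend from A10. Clones 2A.2, 3C.4 and 5A.6 of AOSN.B.COSN123 also lack B on CAST. Intact genome1 alleles came from 3 libraries of lines whose deletion lies on CAST (CR11.8k clone 50 and 2 cultures of CTSS clone C4).

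Replication timing (RT) is the order in which parts of the genome are copied during S phase. It was measured as log2 of early over late reads in 50 kb windows, so that values above 0 are early and values below 0 are late. Early replication goes with open, transcribed chromatin, and late replication with chromatin at the nuclear lamina. Early replication control elements (ERCEs) are DNA segments needed in cis for the early replication of their domain, and A, B and C are the ERCEs of the Dppa domain. OSN sites are places bound by OCT4, SOX2 and NANOG, the transcription factors that maintain pluripotency.

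The deleted DNA was defined by 10 guides, each of which matched the GRCm38 (mm10) genome exactly once, on chromosome 16. They are shown because their cut sites bound what the deletion allele lacks, with the 3 bases of the PAM in capitals and the strand and position of each match.
A-G1, minus strand, chr16:48308242-48308264: gggttaatgtgactgggcagTGG
A-G2, minus strand, chr16:48311861-48311883: gtgcacctttaaccagctgcAGG
B-G1, minus strand, chr16:48396802-48396824: cacgtacacagctgcggtagTGG
B-G2, minus strand, chr16:48443051-48443073: tcagagacggaatcgcatcaTGG
C-OSN-3-G1, plus strand, chr16:48606304-48606326: cagcctgttgaattgacagaAGG
C-OSN-3-G2, plus strand, chr16:48607147-48607169: tctcttccctgtgccgtaagTGG
C-OSN-2-G1, plus strand, chr16:48608199-48608221: agagtttgtagaatgctccgGGG
C-OSN-2-G2, minus strand, chr16:48608749-48608771: acaagcatggtagggcctaaAGG
C-OSN-1-G1, minus strand, chr16:48613166-48613188: gagtaactcaggcaaaacgtTGG
C-OSN-1-G2, minus strand, chr16:48614737-48614759: ggaccggccaacctcccttaAGG

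The expected A deletion spans 3619 bp and removes 2 of the 8 exons of Dppa2, coding sequence and UTR included, together with a transcript start of this pluripotency gene. The expected B deletion spans 46249 bp. It takes away all 4 exons of the annotated coding gene Gm5485 and 3 of the 27 exons of Morc1, a gene needed for spermatogenesis, with transcript starts of both. The C OSN deletions are far smaller, 1571 bp for OSN site 1, 539 bp for site 2 and 843 bp for site 3, and all 3 lie in introns of Morc1. In sum 52821 bp are expected to be absent from the deletion allele. These positions follow from the guides, and the junctions of the clones were not examined here. The study lists deletion coordinates found by PCR and sequencing, which were not used here and can differ from these sizes. The window from 48400 to 48450 kb lies almost entirely inside B and the deletion alleles have values in it (-0.86 to -0.64). The authors smoothed each profile over 300 kb, and a few kb of the window lie outside B. Which DNA gives these values was not tested.

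The deletion allele was late across the whole Dppa domain. Between 46500 and 49700 kb of chromosome 16, all 64 windows were below 0 in every deletion profile that had a value. The mean RT of the domain core from 48200 to 48600 kb, which holds Dppa4, Dppa2 and most of Morc1, was -0.88 and -0.75 in the cultures of clone 2E.1 and -0.76 and -0.75 in those of clone 5A.7. On the control homolog of clone 2E.1 it was 1.08 and 1.07. The deletion alleles lay within 0.14 of each other and the groups did not overlap.

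Within its own genome-wide profile the domain core changed rank. In the deletion profiles 22.8% to 29.7% of the autosomal windows had a lower value than the core, against 77.4% and 78.4% in the control profiles and 75.1% to 75.6% in the intact genome1 profiles. The mean difference from the control was -1.86 ± 0.033 (SE, 4 and 2 libraries), with p = 0.0667 in an exact two-sided permutation test, which is the smallest p this design allows (adjusted p = 0.103 over 20 tests). Against the intact genome1 alleles, whose cores had an RT of 0.96 to 1.02, the difference was -1.78 (exact permutation p = 0.0286, the smallest these libraries allow, adjusted p = 0.0571). For this adjustment the intact genome1 alleles took the place of the control among the 20 tests. The labels do not say that replicates of a clone were grown apart from the start, so these p-values measure the spread between libraries, which may be partly technical. The control profiles come from the same libraries as the deletion profiles of 2E.1. Neither the SE nor the permutation test used this pairing, and both took cultures of a clone as independent.

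**Figure D1:**
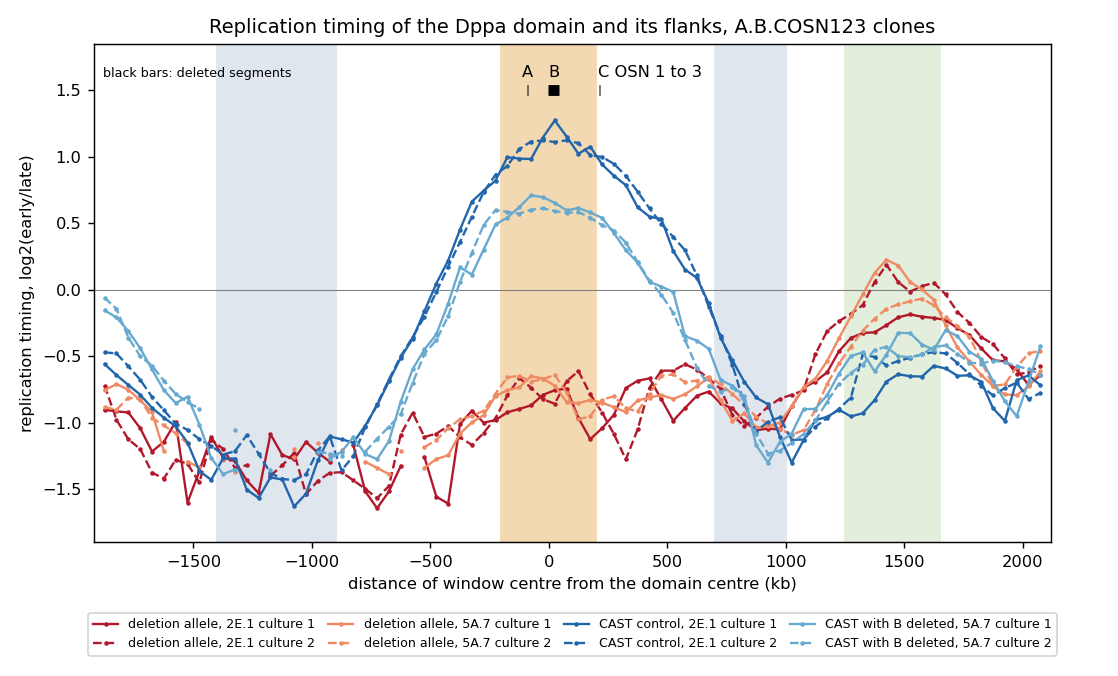
RT in log2(early/late) (y axis) of each 50 kb window against the distance of its centre from the domain centre in kb (x axis), for the deletion alleles (red, orange), the CAST control of 2E.1 (dark blue) and the B-deleted CAST allele of 5A.7 (light blue). Orange shading marks the domain core, grey the late flanks and green the right neighbouring domain, and gaps are windows without a value. The red and orange lines stay below 0 through the domain, where the controls rise above 1.

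The core did not have the same RT as both flanks. The left flank from 47000 to 47500 kb, a late region, had an RT of -1.28 and -1.35 in the cultures of 2E.1 and -1.24 and -1.26 in those of 5A.7. The core was above it by 0.40 and 0.61 in 2E.1 and by 0.48 and 0.51 in 5A.7. The right flank from 49100 to 49400 kb was less late, at -0.98 and -0.90 in 2E.1 and -0.97 and -0.90 in 5A.7. Over this flank the core stood only 0.098 and 0.15 higher in 2E.1 and 0.21 and 0.14 higher in 5A.7.

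The core of the deletion allele lay nearer to the right flank than to the left in each of the 4 libraries. This order was shared by the control and by all comparison alleles. In the control the core was 2.48 and 2.35 above the left flank and 1.81 and 1.87 above the right. Taken against the mean of both flanks, the deletion allele had a core height of 0.32 ± 0.056 (SD, n = 4), and the control one of 2.13 ± 0.025 (SD, n = 2). The difference of -1.80 had the exact permutation p of 0.0667 that 4 against 2 libraries allow (adjusted p = 0.103). In clone 5A.7 the left flank rests on 3 of its 10 windows in each culture, against 10 and 9 in 2E.1.

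**Figure D2:**
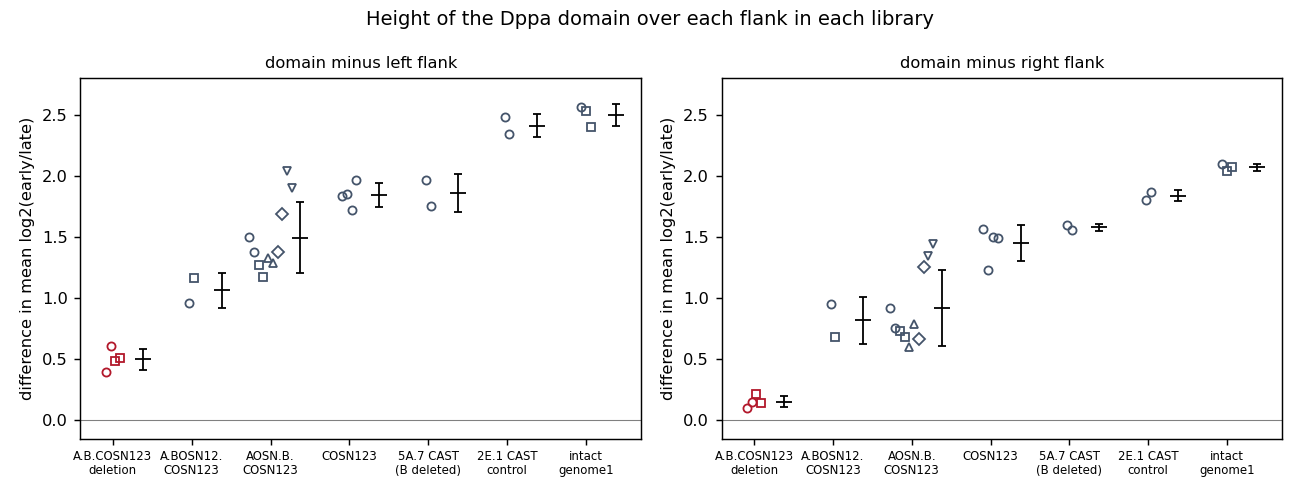
Mean log2(early/late) of the domain core minus that of the left flank (left panel) and of the right flank (right panel), 1 symbol a library, with a different shape for each clone of a group; black marks give mean ± SD. The deletion alleles lie between 0.40 and 0.61 over the left flank and between 0.098 and 0.21 over the right flank, below all other alleles.

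Single windows were then set against the highest window of either flank in the same profile, a description with no test. On the control 25 of the 32 windows from 47500 to 49100 kb exceeded it, by up to 1.64 and 1.47. On the deletion allele 9 of 30 and 10 of 32 windows did so in clone 2E.1, and 13 of 29 and 10 of 26 in clone 5A.7. Their excess was small, at most 0.19, 0.19, 0.18 and 0.075 in these 4 profiles. The highest flank window was always the one that begins at 49100 kb, the edge of the right flank.

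Most windows above the flanks fell into 2 groups. One lay in the core, where 3 and 4 of the 8 windows of 2E.1 and 6 and 5 of 5A.7 exceeded the flanks. No core window did so in all 4 profiles, and 4 of them, from 48250 to 48450 kb, did so in 3 profiles. The other group lay on the right, between 48750 and 49100 kb, over Retnlb, Retnla, Retnlg, Dzip3 and Cip2a, with 5 to 6 windows a profile. The 3 windows that were above the flanks in every deletion profile all belonged to it (48850 to 48900 kb and 49000 to 49100 kb). Windows of the right group were also above the flanks in the comparison lines. They numbered 5 to 7 in COSN123, 6 to 7 in AOSN.B.COSN123 and 5 to 6 in A.BOSN12.COSN123. Outside both groups were 48700 to 48750 kb in culture 1 of 2E.1 and 48150 to 48200 kb in culture 1 of 5A.7. These counts rest on the limit chosen. They were 2 and 1 in 2E.1 and 1 and 4 in 5A.7 with wider flanks (46500 to 47500 and 49000 to 49500 kb), and 7, 6, 6 and 0 with the flank mean plus 2 SD. Under neither of these limits did any window stand above the flanks in every profile.

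Between these 2 stretches the mean was lower. Mean RT was -0.93 ± 0.11 (SD, n = 4) from 48600 to 48750 kb and -0.75 ± 0.052 from 48750 to 49100 kb, close to the -0.79 ± 0.066 of the core. The window from 48700 to 48750 kb varied, with -0.74 and -1.28 in 2E.1 and -0.92 and -0.89 in 5A.7. A lower stretch between core and right group was also present in A.BOSN12.COSN123. Its means were -0.35 in the core, -0.81 from 48600 to 48750 kb and -0.66 from 48750 to 49100 kb. The highest window from 47000 to 49400 kb was outside the core in 3 of the 4 deletion profiles (48800 to 48850 kb and 48950 to 49000 kb in 2E.1, 48900 to 48950 kb in culture 2 of 5A.7), and from 48300 to 48350 kb in culture 1 of 5A.7. In both control profiles it was in the core. The lowest and highest windows of a deletion profile differed by 0.64 to 1.01, against 2.91 and 2.56 in the control.

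The 4 deletion profiles scattered by about as much as these windows rose above the flanks. Over the 61 windows measured in all of them, the SD among the profiles had a median of 0.11 and reached 0.27. The median absolute difference per window between cultures was 0.15 within 2E.1 and 0.10 within 5A.7, and 0.11 to 0.15 between the clones. The differences between clones were within the range of those between cultures of a clone. The CAST allele of 5A.7, which lacks B, had a core RT of 0.63 and 0.58, below the 2E.1 control and far above the deletion alleles.

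Windows that differed from the comparison alleles were found with limma on clone means over all autosomal windows, with Benjamini-Hochberg adjustment and a threshold of 0.05. The CAST control and COSN123 are 1 clone each and so enter as a single clone mean, which is assumed to vary like the other genotypes: the spread comes from all genotypes in the fit (median residual df 71). Against the CAST control, 24 of the 72 tested windows from 46500 to 50500 kb were lower on the deletion allele, where 1.41% of all tested windows were lower and 0.605% higher. They formed 1 run without a gap from 47850 to 49050 kb. The drop was largest from 48550 to 48600 kb (-1.97 ± 0.20 SE, adjusted p = 2.12e-11) and smallest, at -0.80, at the right end. No window of the region was called higher, although 3 had an unadjusted p under 0.05, a cut not counted over the genome. The genome1 and CAST homologs differ in strain as well as in the deletion. Against the intact CAST alleles of 41 other clones 31 of 57 tested windows of the region were lower and 3 higher, but so were 10.3% and 13.7% of the windows of the genome.

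Against the intact genome1 alleles the run was narrower, 19 windows from 48000 to 48950 kb (0.0535% of all windows were called lower and 0.0229% higher), with a largest drop of -1.88 ± 0.18 (SE) from 48350 to 48400 kb (limma, adjusted p = 5.97e-13). Of the 21 windows called lower in the genome, 19 were in this run. The homologs also differed at the left edge without a deletion. From 47500 to 48000 kb mean RT was -0.59 ± 0.032 (SD, n = 2) on the CAST control but -1.27 ± 0.079 (SD, n = 3) on the intact genome1 alleles, next to -1.29 ± 0.13 (SD, n = 4) on the deletion alleles. These means rest on partly different windows. The deletion profiles had values in 8 and 10 windows in 2E.1 and in 7 and 4 in 5A.7. Intact genome1 had 6 to 10 and each control profile 10. RT rose through 0 at 47910 and 47930 kb on the CAST control and at 48080 to 48090 kb on intact genome1, and fell below 0 again at 49050 kb and at 48950 to 48990 kb. The deletion alleles crossed 0 nowhere between 47500 and 49500 kb. The same was true of both A.BOSN12.COSN123 libraries. AOSN.B.COSN123 had 0 to 10 windows at or above 0 there, with a median of 0.

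COSN123 shows the state before A and B were removed. Its core RT was 0.51, 0.23, 0.47 and 0.42 in the 4 cultures, still early. The deletion alleles were lower by 1.19 ± 0.070 (SE) without overlap (exact permutation p = 0.0286, adjusted p = 0.0952). By limma 10 windows were called lower, from 48150 to 48650 kb (-0.96 to -1.35, adjusted p = 0.0335 at most), and none in the region higher (0 also at an unadjusted p under 0.05). All 10 windows called lower in the genome (0.0254% of those tested) were these. The largest drop, -1.35 ± 0.22 (SE, adjusted p = 0.000835), lay from 48350 to 48400 kb beside and partly inside B. Without clone 2E.1 or without clone 5A.7 the count was 5, and it was 5 without the windows that overlap a deleted segment. COSN123 is here the mean of clone A10 alone, so its own spread between clones is unknown. The permutation test took the 4 cultures of this clone as independent. From 48650 kb to the right end of the region no window passed the threshold.

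AOSN.B.COSN123 differs from the deletion allele, on the genome1 homolog, in how much of A was removed: the OSN site alone or the whole segment (3619 bp by the guides). Its core RT ran from -0.33 to 0.48 with a median of -0.14 in 10 libraries. All 4 deletion alleles were lower than all 10, by 0.79 ± 0.099 (SE, exact permutation p = 0.000999, the smallest possible, adjusted p = 0.00666). The height of the core over both flanks was 0.25 to 0.38 on the deletion allele and 0.93 to 1.70 on AOSN.B.COSN123 (difference -0.88 ± 0.098 SE, adjusted p = 0.00666 in the same exact test). With clones as units, 2 against 5, the core difference had an exact permutation p of 0.0476 and an adjusted p of 0.317. This is the smallest p these clones allow, so a call at the threshold was not possible.

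By limma 11 windows from 48100 to 48650 kb were lower than on AOSN.B.COSN123, by -0.62 to -0.84 (adjusted p = 0.003 to 0.0296). They were all of the 11 windows called lower in the genome (0.0287% of those tested, with 0.00261% called higher), and 10 of them were also lower than on COSN123. The deletion clones are the same in both comparisons. Clone 5A.6 stood apart among the comparison clones, with a core RT of 0.48 in both cultures. The count fell to 0 without it (17 windows of the region at an unadjusted p under 0.05). It also fell to 0 without clone 2E.1 (15 at an unadjusted p under 0.05) and without clone 5A.7 (16). The share of all windows of the genome under this unadjusted cut was not counted, and smoothing makes neighbouring windows dependent.

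A.BOSN12.COSN123 differs in B, where it lost 2 OSN sites instead of the whole segment. Its core RT was -0.32 in clone A6 and -0.39 in clone C11, the latest of the comparison alleles. The deletion alleles were lower than both, by 0.43 ± 0.048 (SE), with the smallest exact permutation p the design allows, 0.0667 (adjusted p = 0.103). In the limma fit all 8 core windows were lower on the deletion allele, by -0.37 to -0.55, but the count of called windows was 0 of 71 in the region (15 lower and 3 higher at an unadjusted p under 0.05). How many windows of the genome passed that unadjusted cut was not counted. Across the genome 0.00522% of the windows were called lower and 0.316% higher. With single cultures and clone as a random block, 1 window of the region was called. The lowest adjusted p in the region was 0.0943. Its core height over the flanks was 0.96 and 0.93, against 0.25 to 0.38 on the deletion allele.

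**Figure D3:**
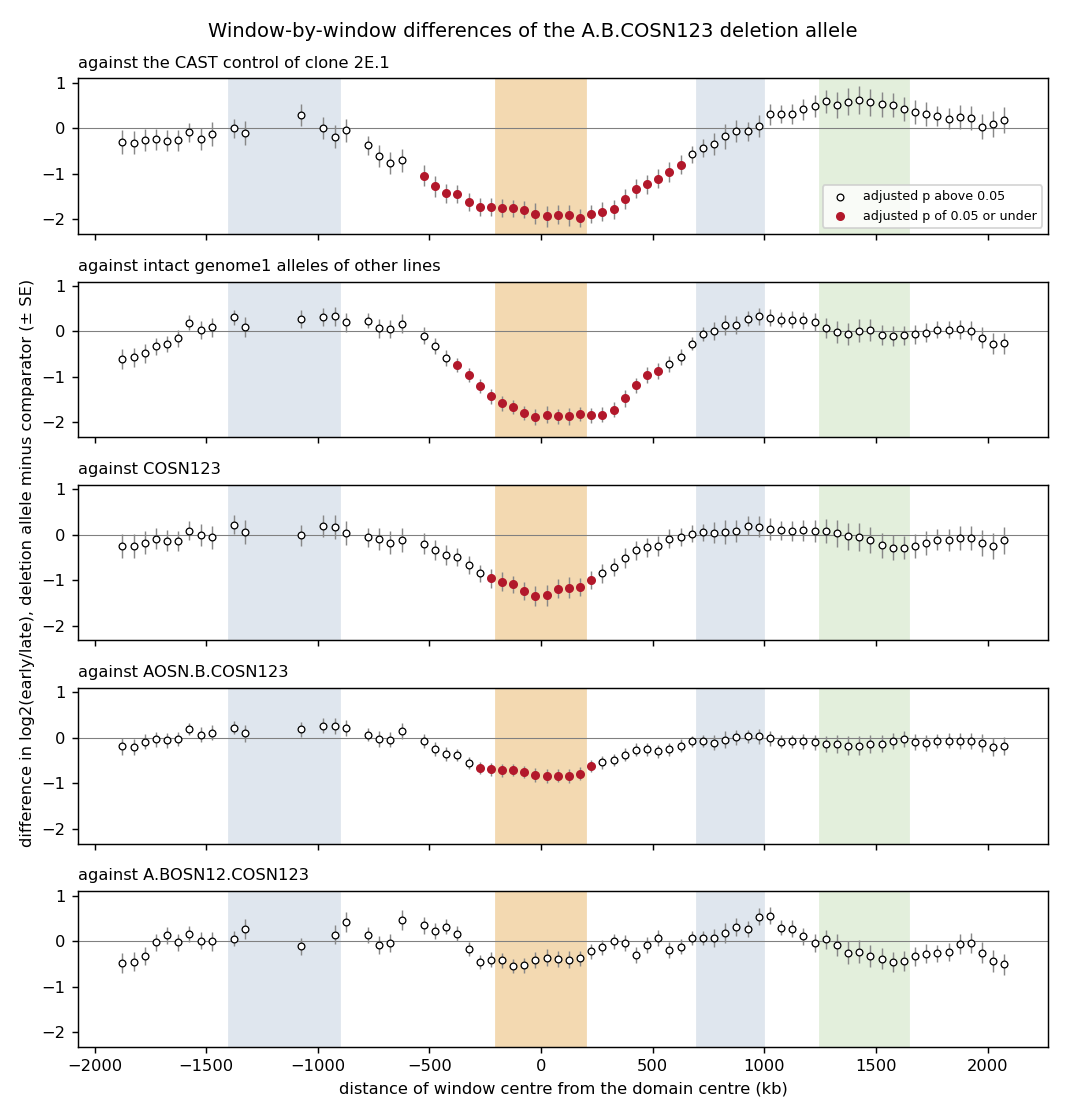
Difference in log2(early/late) of the deletion allele minus each comparison allele (y axis, ± SE from limma) for each 50 kb window with a test, against distance from the domain centre in kb (x axis). Filled red points have an adjusted p of 0.05 or under. The red run holds 24, 19, 10, 11 and 0 windows from the top panel down and is centred on the core (orange shading; grey, flanks; green, right neighbouring domain).

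The order of core RT over these alleles was A.B.COSN123 (-0.79 ± 0.066 SD), A.BOSN12.COSN123 (-0.35 ± 0.049 SD), AOSN.B.COSN123 (0.00045 ± 0.30 SD), COSN123 (0.41 ± 0.12 SD), intact genome1 and the CAST control. The values of A.B.COSN123 (-0.88 to -0.75) did not overlap with those of A.BOSN12.COSN123 (-0.39 to -0.32). A.BOSN12.COSN123 touched the low end of AOSN.B.COSN123 (-0.33 to 0.48), and this in turn overlapped with COSN123 (0.23 to 0.51). Differences among the comparison alleles were not tested.

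The mean of the left flank was higher on the deletion allele than on all 5 comparison alleles, but its sign turned against the CAST control without culture 1 of 2E.1 (-0.012) and against A.BOSN12.COSN123 without clone C11 (-0.0014). It was higher than on AOSN.B.COSN123, at -1.28 ± 0.049 (SD, n = 4) and -1.50 ± 0.057 (SD, n = 10), a difference of 0.21 ± 0.030 (SE) without overlap (exact permutation p = 0.000999, adjusted p = 0.00666). With clones as units the exact permutation p was 0.0476 (adjusted p = 0.317). It is the smallest p these clones allow, so a call at the threshold was not possible. Clone 2E.1, which has nearly all windows of this flank, was at -1.28 and -1.35, above the highest AOSN.B.COSN123 value of -1.42. Against the intact genome1 alleles, at -1.58 to -1.39, it was 0.22 higher without overlap (exact permutation p = 0.0286, adjusted p = 0.0571). Against COSN123, A.BOSN12.COSN123 and the control the left flank overlapped (differences of 0.15, 0.14 and 0.054, adjusted p = 0.286, 0.178 and 0.444 in exact permutation tests). The right flank was 0.17 lower than on the CAST control but 0.14 higher than on the intact genome1 alleles, so its direction differs between these controls. The 48 intact CAST libraries of other clones had a median of -1.02 (-1.54 to -0.79) in this flank, below the -0.94 of the deletion allele. It was 0.10 higher than on COSN123 without overlap (exact permutation p = 0.0286, adjusted p = 0.0952) and differed from AOSN.B.COSN123 by -0.019 ± 0.030 (SE, adjusted p = 0.587). Both tests took cultures of a clone as independent, and COSN123 is a single clone. The largest difference of this flank was 0.24 ± 0.10 (SE) over A.BOSN12.COSN123, whose libraries had -1.27 and -1.07, without overlap (exact permutation p = 0.0667, the smallest possible, adjusted p = 0.103).

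The neighbouring domain on the right, from 49650 to 50050 kb, holds Cd47, a cell surface protein that inhibits phagocytosis, and most of Ift57, a part of the intraflagellar transport machinery of cilia. On the deletion allele its RT was -0.26 and 0.0086 in 2E.1 and 0.035 and -0.19 in 5A.7. The CAST control was later, at -0.74 and -0.55, a difference of 0.54 ± 0.12 (SE, exact permutation p = 0.0667, adjusted p = 0.103). Against the intact genome1 alleles, at -0.21 to 0.14, the groups overlapped and the sign was opposite (-0.071, p = 0.629). The domain also overlapped with COSN123 (-0.056 to 0.084, adjusted p = 0.302 by exact permutation) and with AOSN.B.COSN123 (-0.54 to 0.42, adjusted p = 0.493). It was below A.BOSN12.COSN123 (0.14 and 0.20) without overlap, by 0.27 ± 0.078 (SE, exact permutation p = 0.133, adjusted p = 0.178). The 48 intact CAST libraries of other clones ran from -1.25 to 0.050 with a median of -0.43 and so overlapped with the deletion alleles.

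**Figure D4:**
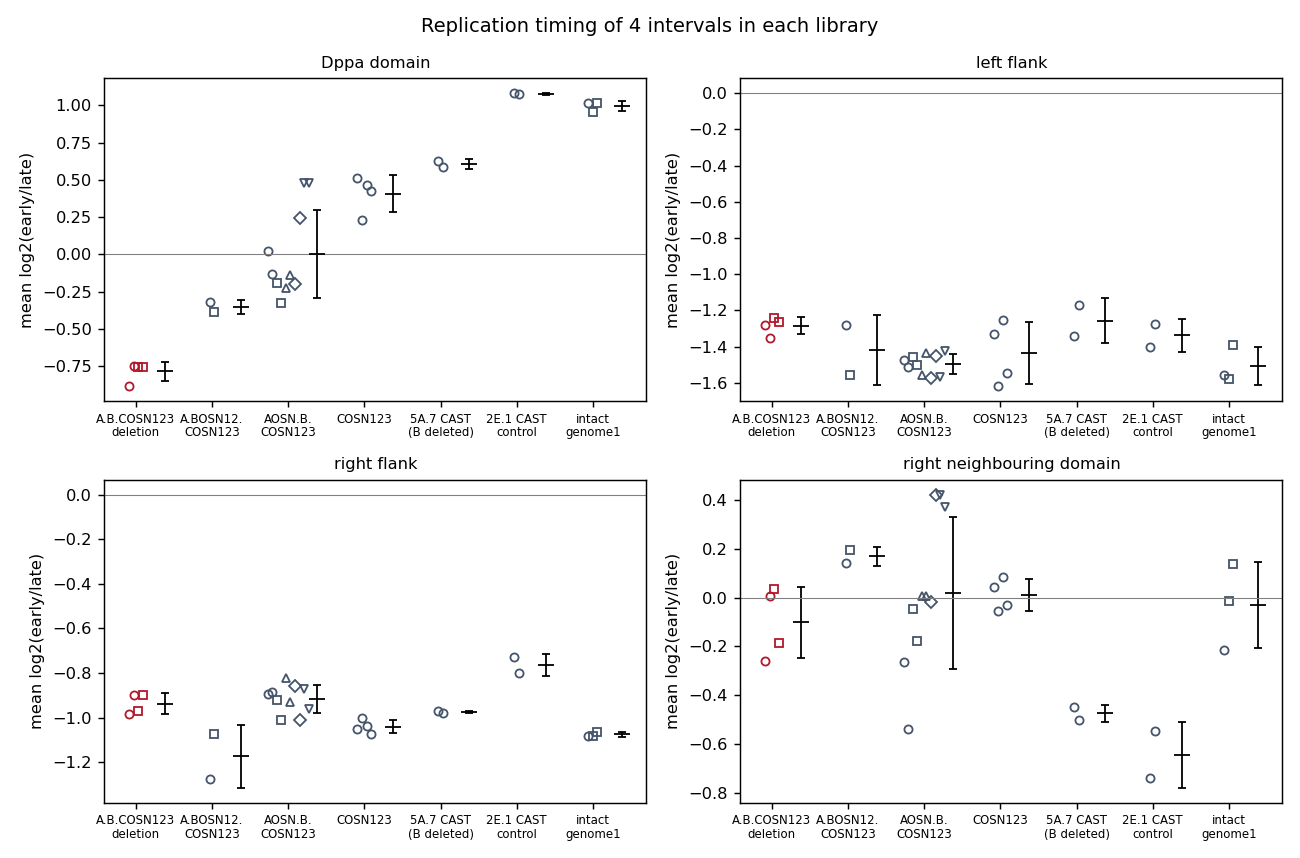
Mean log2(early/late) of the domain core, both flanks and the right neighbouring domain (y axes) in each library, by allele (x axis), with a different symbol shape for each clone of a group; black marks give mean ± SD. In the core the 4 deletion alleles (-0.88 to -0.75) lie below every other library, while in the neighbouring domain they (-0.26 to 0.035) overlap with COSN123, AOSN.B.COSN123 and intact genome1, lie below A.BOSN12.COSN123 and lie above the CAST alleles of the 2 clones plotted.

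The list of 14 genes of the region was followed by the windows each gene overlaps. On the deletion allele 12 of them, from the lincRNA 6430553K19Rik to Myh15, had a mean RT between -0.93 and -0.72, and these were nearly flat along the domain. On the control the same genes ran from 1.16 down to -0.34. Against the CAST control every tested window was lower for 11 genes and none for Myh15, Ift57 and Cd47 (1.41% of all tested windows were lower). Against the intact genome1 alleles (0.0535%) every tested window was lower for 9 genes, with 1 of 2 windows of Dzip3 and 0 of 2 of Cip2a. Against A.BOSN12.COSN123 (0.00522%) no window was lower for any of the 14 genes. Against COSN123 the windows of 4 genes were all lower (Dppa4, Dppa2, Gm5485 and Morc1), those of 6430553K19Rik in part (0.0254% of all windows), and against AOSN.B.COSN123 those of all 5 (0.0287%).

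Dppa4 and Dppa2 encode DNA-binding proteins that form a heterodimer and mark pluripotent cells. The window of Dppa4 was at -0.90 and -0.67 in 2E.1 and -0.74 and -0.65 in 5A.7, with the control at 0.99 and 1.06. The window of Dppa2, which contains the A deletion, was at -0.87, -0.74, -0.65 and -0.69 in the same order, with the control at 0.98 and 1.12. Both genes overlap a single window and changed by -1.76 and -1.79. All deletion libraries were far below all control libraries at both.

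Morc1, which encodes a germline silencing ATPase and spans 5 windows, had -0.93, -0.78, -0.82 and -0.84 on the deletion alleles and 1.09 and 1.07 on the control, with a change of -1.92, the largest of the list. Gm5485, removed with B, lies in 2 windows with a mean of -0.74 ± 0.082 (SD, n = 4), of which 1 begins before the deleted segment. Trat1, a T cell receptor adaptor gene between Morc1 and the resistin-like genes, was the gene with the widest scatter (-0.71, -1.17, -0.88 and -0.90, control 0.70 and 0.80).

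To the right of the domain core the change shrank. At Retnlb and Retnla, secreted resistin-like proteins that share 1 window, it was -1.33, at Retnlg -1.23, at the ubiquitin ligase gene Dzip3 -1.03 and at Cip2a, an inhibitor of the phosphatase PP2A, -0.88. The control fell over the same genes from 0.58 at Retnlb to 0.16 at Cip2a, while the deletion allele stayed between -0.75 and -0.72. Myh15, a myosin heavy chain gene in the right boundary, was at -0.79 ± 0.055 (SD, n = 4) against -0.34 ± 0.011 (SD, n = 2), and 0 of its 3 windows were called. On the left, 6430553K19Rik was at -0.93 ± 0.087 (SD, n = 4) against 0.79 ± 0.012 (SD, n = 2).

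**Figure D5:**
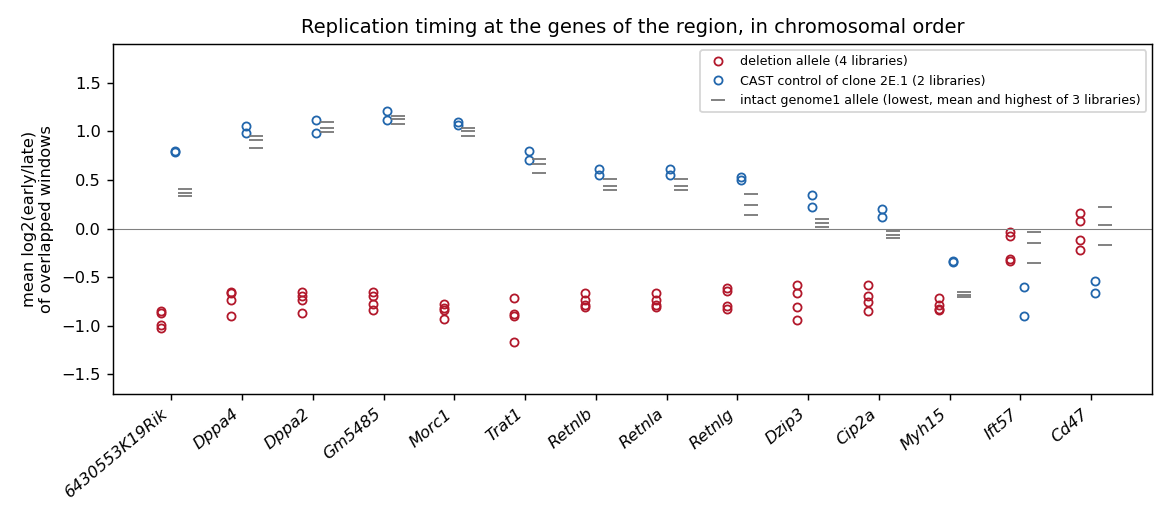
Mean log2(early/late) of the windows each gene overlaps (y axis), genes in chromosomal order (x axis). Red circles are the 4 deletion libraries, blue circles the 2 CAST control libraries and grey dashes the lowest, mean and highest of the 3 intact genome1 libraries. The red circles stay between -1.17 and -0.58 from 6430553K19Rik to Myh15 and reach the grey dashes at Ift57 and Cd47.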

How the data were processed

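The deposited table holds log2 early over late ratios for 49264 windows of 50 kb. According to the methods, the authors trimmed reads, aligned them with bowtie2 to N-masked mm10, assigned them to homologs with SNPsplit, took log2 ratios of early over late reads, scaled, quantile-normalized and loess-smoothed them over 300 kb. Genome1 is the 129 homolog and genome2 the CAST homolog of F121-9. Versions are not given in the sources used here. Smoothing makes neighbouring windows dependent and quantile normalization makes levels relative. Read depth is unknown, so no counting error is given. Deletion profiles had a value in 77.6% to 86.8% of windows. Repeat runs of a library were averaged. The members, intervals and gene list were chosen with earlier results of these data known. Genes: all coding genes overlapping 47500 to 49500 kb, 6430553K19Rik, Cd47 and Ift57 (GENCODE vM21, mm10).

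limma 3.58.1 in R 4.3.3 was fitted to clone means of all homologs, grouped by genotype, on windows with a value in every compared profile, and checked on simulated data. The homologs of a clone entered the fit as independent profiles. A clone mean rests on 1 culture where the other had no value. Interval means per library were compared by exact two-sided permutation, adjusted over 5 intervals and 4 comparison groups (20 tests). Intact 129 (genome1) alleles were added as a control after seeing the data. For adjustment their tests took the place of those of the CAST control among the 20. 5 labelled libraries without a column were not analysed here.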

Additional observations from a re-analysis of the deposited data

Results flagged for a closer look

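The core RT of culture 1 of clone 2E.1 (-0.88) lay apart from the other 3 deletion libraries (-0.76 to -0.75). Its gap to the nearest of them was 0.917 of the range of all 4, above the critical value of 0.829 for Dixon's ratio. It was the only value set apart among the 15 groups of values examined (the core, the flanks, the height and the neighbouring domain on the deletion alleles, COSN123 and AOSN.B.COSN123), and chance sets apart about 1 group in 20. Without this culture the core difference to AOSN.B.COSN123 remained below 0 with an adjusted exact permutation p under the threshold, as in every setting that left out 1 culture.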

How the results depend on the processing

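Missing values limit single windows: windows without a value could not be tested, and the left flank of clone 5A.7 rests on 3 windows a culture. With no read counts, the reason for these gaps was not tested. The 2 deletion clones limit every comparison, and COSN123 and the CAST control are 1 clone each. The counts of lower windows moved most. Without windows at deleted segments they were 5 against COSN123 and 7 against AOSN.B.COSN123. Without clone 2E.1 or clone 5A.7 they were 5 and 5 against COSN123, and 0 and 0 against AOSN.B.COSN123. Leaving out each culture, or each comparison clone, gave 0 to 11 against AOSN.B.COSN123, with 0 only without clone 5A.6. Against A.BOSN12.COSN123 the random block for clone gave 1. With clones as units the differences to AOSN.B.COSN123 kept their size (core -0.79, height -0.88, left flank 0.21, adjusted p = 0.317 each by exact permutation). Each p was the smallest these clones allow, so that test could not call them at the threshold. The left flank changed sign when single cultures were left out, from -0.012 to 0.14 against the CAST control and from -0.0014 to 0.27 against A.BOSN12.COSN123. With intact genome1 alleles as control the right flank (0.14) and the neighbouring domain (-0.071) changed sign. The causes were not tested, except that fewer clones were compared.

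Windows above the flanks numbered 2, 1, 1 and 4 in the deletion profiles (2E.1, then 5A.7) with flanks of 46500 to 47500 and 49000 to 49500 kb, which take in part of the right group, and 7, 6, 6 and 0 with a limit of the flank mean plus 2 SD. With a replicate block the count against AOSN.B.COSN123 was 9 (10 without the block, on the cultures of these lines alone), and the block changed no call of an interval. The same numbers do not pair the cultures: in 4 of 21 pairs of clones the deviations correlated over 0.1. Of the alternatives planned, 260 values kept their direction and their side of the threshold, 14 moved, 3 were weaker and 2 were reversed. Permutation of the libraries against the 2E.1 control or A.BOSN12.COSN123 could not reach the threshold whatever the values.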
